A study of Mus musculus with 12 samples.

Results

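Label-retaining cells of the SL fraction of mouse back epidermis (SL LRC, 2 samples) were compared with the cells of the same fraction that had lost the label (SL non-LRC, 2 samples). These 4 samples were taken by their titles from the 12 of the series. The other 8 are 3 BL LRC, 3 BL non-LRC and 2 GL samples, used below for an estimate of array effects and to place the levels. The titles give only abbreviations, and from what is known of the study SL is taken as the spinous layer, BL as the basal layer, GL as the granular layer and LRC as a label-retaining cell. All 12 samples came from mice with 4 transgenes: K5-tTA with pTRE-H2B-GFP for the label, and K14-CreER with Rosa-tdTomato for tracing. Every mouse was fed doxycycline (1 g/kg of food, 2 weeks), was given 1 tamoxifen dose of 75 mg/kg and was killed 1 week later, at the second telogen. The keratin 5 promoter drives the transactivator, so the nuclear label is set in cells that use that promoter and in their progeny. The labels name neither the sorting gates nor the animals, so whether the samples came from separate mice is not given here, and a p-value covers the spread between the arrays compared and may be technical.

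In this system a fluorescent histone is incorporated into chromatin while the transactivator is active. Doxycycline stops its synthesis, and each later division shares out what is left, so cells that keep the label are those that divided little during the chase. Keratinocytes leave the basal layer as they differentiate, exchange the keratins Krt5 and Krt14 for Krt1 and Krt10, and later make cornified envelope proteins. Proliferation is normally a property of basal cells, and in hair follicles the infundibulum, isthmus and sebaceous gland each have keratinocytes of their own.

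Each sample was read on 1 array, and levels are linear signal in intensity units that the authors scaled to a common mean. Of 18194 genes, 68.9% to 71.3% were above the background floor on the SL LRC arrays and 73.0% to 77.8% on the SL non-LRC arrays, the floor being the 95th percentile of bacterial control probe sets on that array. Over all genes the signals of the pair of SL LRC arrays correlated at r = 0.927, those of the pair of SL non-LRC arrays at 0.932, and arrays of different SL groups at 0.903 to 0.919, which is a description across genes. A control transcript added at hybridisation, BioB, divided the SL groups completely, with 3490 and 3283 units on the SL LRC arrays and 473 and 524 on the SL non-LRC arrays. Label retention and this array set therefore cannot be told apart from the SL arrays alone. The low-BioB set also holds BL LRC 1 and BL non-LRC 1, so a term for the set was estimated through BL, and its values are quoted beside the results. Those 2 BL arrays also lack the Y-linked signal that all SL arrays carry, so the term takes in that difference too. BioC, another hybridisation control, differed less, at 9954 and 9251 units on the SL LRC arrays and 6814 and 8020 on the SL non-LRC arrays. Xist, made from an inactive X chromosome, gave 997 units on SL LRC 2 beside the Y-linked signal, and 3.86 to 28.6 on the other 3 SL arrays, so calls of named genes that end when 1 SL array is left out are marked as such. The 3' signal of Actb over its 5' signal (log2), a measure of RNA quality, was -0.19 on both SL LRC arrays and -0.095 and -0.039 on the SL non-LRC arrays, and its part in the results was not tested.

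The spinous reading of the label was only partly visible in the keratins. Krt10 gave 32913 and 29532 units in SL LRCs and 21769 and 20515 in SL non-LRCs, while its geometric mean was 27613 in BL LRCs and 19193 in BL non-LRCs, so it did not set SL apart from BL. Krt5, a basal keratin, was as bright, with 22366 and 20248 units in SL LRCs against 18786 and 20454 in SL non-LRCs, and the BL geometric means were 27307 in LRCs and 23168 in non-LRCs. Sbsn, a secreted suprabasal protein, separated the fractions better, at 19976 and 20415 units in SL LRCs and 16964 and 15556 in SL non-LRCs, against 9357 and 7047 in BL LRCs and BL non-LRCs. The late envelope genes Lor and Flg were dim, at 286 to 1135 and 23.6 to 125 units over the SL arrays. The samples are therefore called by their titles, SL LRC and SL non-LRC.

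Across all genes tested, 763 (4.19%) differed between SL LRCs and SL non-LRCs at an adjusted p under 0.05 (limma, Benjamini-Hochberg over 18194 genes), of which 271 (1.49%) were higher and 492 (2.7%) lower in SL LRCs. At an unadjusted p under 0.05 there were 3071 genes. The 2 samples of each group did not overlap for 47.5% of all genes, with SL LRCs above in 23.4% and below in 24.2%, so non-overlap alone says little with 2 samples a group. With the array-set term 320 genes (1.76%) passed, 97 (0.533%) higher and 223 (1.23%) lower. Of these, 270 were among the 763, and none of the 763 changed sign. There were 300 calls without SL LRC 1, 410 without SL LRC 2, 481 without SL non-LRC 1 and 209 without SL non-LRC 2, and 132 genes, 32 higher and 100 lower, passed in all 4 of these fits and with the array-set term.

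**Figure D1:**
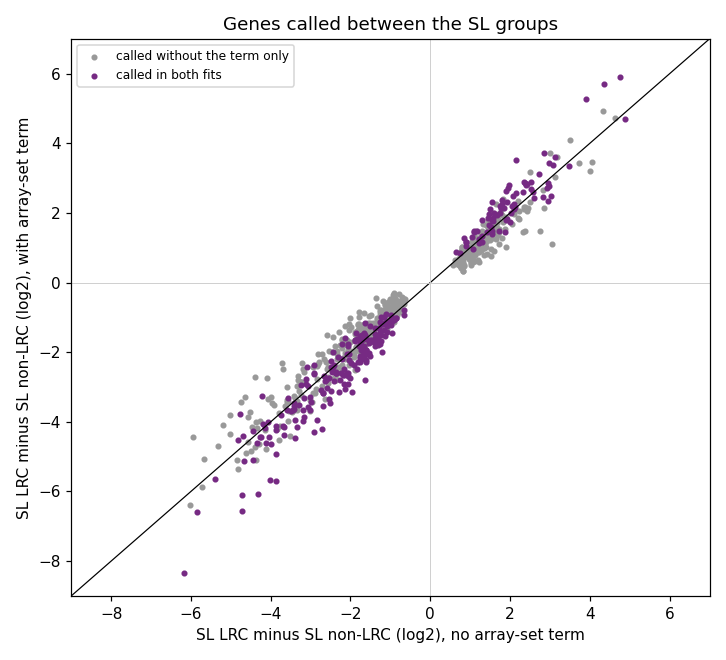
Log2 difference of SL LRC minus SL non-LRC for each of the 763 called genes without (x axis) and with (y axis) the array-set term estimated through BL. Purple points are the 270 genes called in both fits, grey points those called only without the term, and the diagonal marks equal values. Every point has the same sign on both axes, and the median size is 1.67 without the term and 1.62 with it.

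The largest increases in SL LRCs that also passed with the array-set term included Igfbp3, a secreted binder of insulin-like growth factors. It gave 1879 and 1764 units in SL LRCs and 203 and 22.1 in SL non-LRCs, where this probe set was above the floor on 1 array, and its other probe set differed by 3.39. The log2 difference was 4.77 ± 0.75 (SE, with 2 arrays on each side; adjusted p = 0.00153, and 0.0045 with the array-set term). The groups stood far apart, although the SL non-LRC arrays differed from each other by more than the SL LRC arrays did. Zc2hc1c, a zinc-finger gene, gave 228 and 142 units in SL LRCs and 6.02 and 6.18, under the floor, in SL non-LRCs (adjusted p = 0.000554, and 0.0166 with the term), but its probe sets disagree: a dimmer one gave 12.1 and 31.3 units, under the floor, in SL LRCs and 39.3 and 33.3 in SL non-LRCs. Dab1, an adaptor of reelin signalling in neurons, gave 309 and 281 units in SL LRCs and 13.9 and 14.8 in SL non-LRCs (adjusted p = 0.00312, and 0.0045 with the term). Its other 4 probe sets also differed upwards but by less, by 0.91 to 2.56, and the one above the floor on all 4 arrays gave 195 and 195 units in SL LRCs and 99.9 and 109 in SL non-LRCs. On the first probe set Dab1 had a BL geometric mean of 218 units in LRCs and 161 in non-LRCs, so its SL non-LRC signal there was the lowest among the BL and SL groups.

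Ccr4, a chemokine receptor best known on T cells, gave 1420 and 1501 units in SL LRCs and 202 and 139 in SL non-LRCs (3.12 ± 0.43, adjusted p = 0.000554, and 0.00336 with the term). The T cell receptor chain gene Cd3e gave 195 and 192 units in SL LRCs and 418 and 154 in SL non-LRCs, a spread that overlaps. Krt78, a type II keratin, gave 1907 and 3874 units in SL LRCs and 323 and 363 in SL non-LRCs (2.99 ± 0.41, adjusted p = 0.000523, and 0.0166 with the term). Gsta2, a glutathione transferase, rose by 3.08 ± 0.58 (adjusted p = 0.00586, and 0.0382 with the term), but lost its call without SL LRC 2 (0.0575) and without SL non-LRC 2 (2.01, adjusted p = 0.117). Sema3d, Gm94, Gask1b and Cyfip2 rose by 2.96 to 3.49 and held in all 4 fits without 1 SL array, as did Igfbp3, Zc2hc1c, Dab1, Ccr4 and Krt78. Lce1d, a late cornified envelope gene, was at least 3.47-fold higher (89.6 and 101 units against 7.76 and 5.14; adjusted p = 0.0276, and 0.0345 with the term) and lost its call in all 4, with adjusted p up to 0.181.

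In the other direction, Mgst1, a microsomal glutathione transferase abundant in sebaceous cells, gave 187 and 577 units in SL LRCs and 4918 and 8968 in SL non-LRCs. On the log2 scale it fell by 4.34 ± 0.59 (adjusted p = 0.00055, and 0.0095 with the term). Matn2, an extracellular matrix protein, gave 38.4 and 106 units in SL LRCs and 930 and 2055 in SL non-LRCs (-4.44 ± 0.47, adjusted p = 9.05e-05, and 0.00283 with the term), and its other probe set differed by -2.72. Neither gene's groups came near each other. Lama4, a laminin chain, was at least 13.3-fold lower (12 and 25.7 units against 372 and 660; adjusted p = 0.00161, and 0.0349 with the term), and both SL LRC arrays were under the floor. Il18r1, an interleukin 18 receptor chain, was at least 4.72-fold lower, Melk, a kinase of dividing cells, at least 4.25-fold lower, and Zfp275 at least 5.77-fold lower, again with SL LRCs under the floor on both arrays. Melk lost its call without SL non-LRC 2 (adjusted p = 0.0803). The bounds for Mmp17 (5.65-fold) and S100a7l2 (4.06-fold) are less secure, since adjusted p without 1 SL array reached 0.0876 and 0.272. Map9 is given no bound because one of its probe sets was above the floor in SL LRC 1, and its adjusted p reached 0.337.

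**Figure D2:**
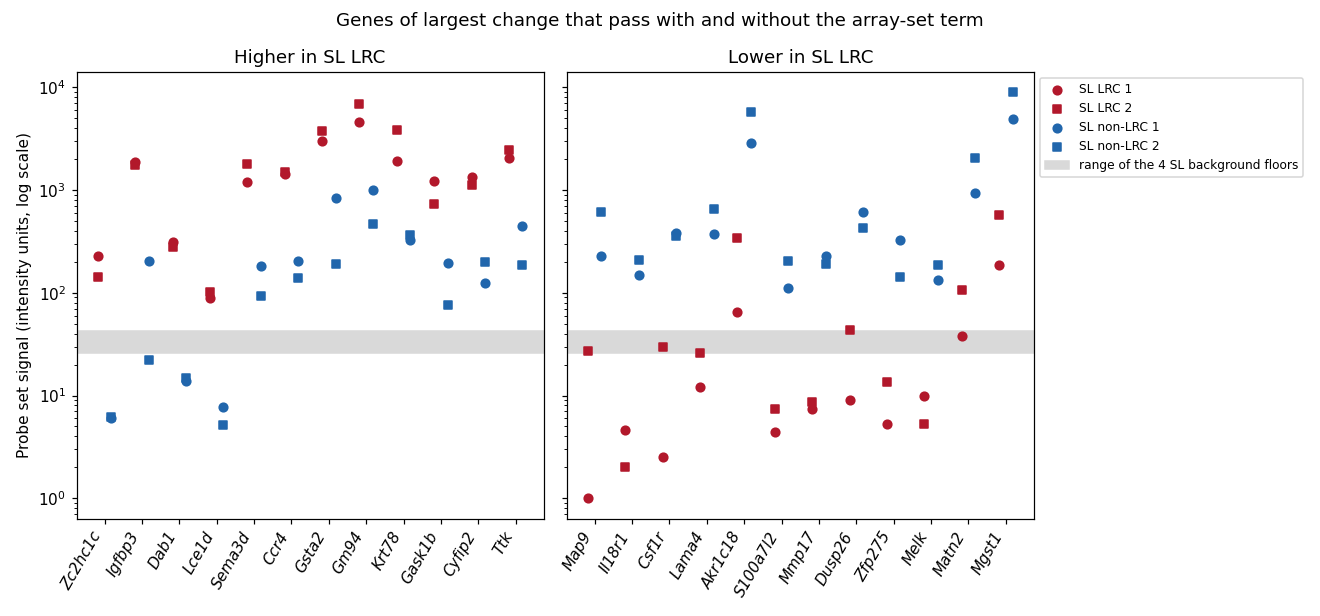
Signal of each SL array (log axis, intensity units) for the 12 genes of largest increase (left panel) and the 12 of largest decrease (right panel) that passed with and without the array-set term. SL LRC arrays are red and stand left of the blue SL non-LRC arrays, circles are replicate 1 and squares replicate 2, and the grey band is the range of the 4 SL background floors. In no gene do the groups overlap, as the choice requires, and 8 of the 12 decreases have both SL LRC arrays under their own floor on the probe set plotted.

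Cell cycle genes were lower in SL LRCs. Of 37 mitosis genes measured, 14 fell and 1 rose, with a median difference of -1.51, against a median of -0.0014 over all genes, and of 35 DNA replication genes 11 fell and none rose (median -0.78). In bulk samples fewer cycling cells and less of these transcripts per cell cannot be told apart. Mki67, the standard proliferation marker, gave 987 and 848 units in SL LRCs and 4080 and 3737 in SL non-LRCs. Cdc20, which activates the anaphase-promoting complex, gave 101 and 129 units in SL LRCs and 454 and 592 in SL non-LRCs. Both genes separated the groups cleanly, with differences of -2.09 ± 0.25 (adjusted p = 0.000219, and 0.00539 with the term) and -2.18 ± 0.39 (adjusted p = 0.00367, and 0.0123 with the term), and Cdc20 lost its call without SL non-LRC 2 (0.0728).

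Further spindle and division genes moved the same way. Kif2c, a kinesin that depolymerises microtubules, fell by 3.66 ± 0.65 (adjusted p = 0.00372, and 0.0241 with the term), with 51.1 and 14.5 units in SL LRCs and 450 and 264 in SL non-LRCs, and without SL LRC 2 its adjusted p was 0.0504. Aspm, a spindle pole protein, fell by 2.29 ± 0.45 (adjusted p = 0.00787), and lost the call with the term (0.056), without SL LRC 2 (0.0944) and without SL non-LRC 2 (0.133). Cdca8, a chromosomal passenger subunit, fell by 1.47 ± 0.29 (adjusted p = 0.00692), and lost the call with the term (0.109) and in 3 of the 4 fits without 1 SL array (up to 0.0644). With the term 5 mitosis genes remained lower, namely Mki67, Ccna2, Cdc20, Kif2c and Tpx2, and Ttk remained higher (median -1.70). Ccna2 and Tpx2, named after their values were seen, lost their calls in all 4 fits without 1 SL array (up to 0.232 and 0.146). Between 4 and 11 of the 37 passed when 1 SL array was left out.

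The exception was Ttk, a kinase of the spindle checkpoint. Its signal was 2034 and 2467 units in SL LRCs and 450 and 187 in SL non-LRCs, a rise of 2.95 ± 0.41 (adjusted p = 0.00063, and 0.0274 with the term). Every SL LRC array was above every SL non-LRC array, on both probe sets of the gene, whose differences were 2.95 and 3.45. The call held in all 4 fits without 1 SL array. In the RefSeq table the next protein-coding gene before Ttk is Elovl4, a fatty acid elongase of the skin barrier, which rose by 1.73 ± 0.26 (adjusted p = 0.00118), and the next after it is Bckdhb, at 0.16 (adjusted p = 0.916).

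Replication genes were represented by licensing factors. Mcm5, a subunit of the replicative helicase, gave 816 and 797 units in SL LRCs and 2938 and 2478 in SL non-LRCs (-1.74 ± 0.23, adjusted p = 0.000456, and 0.00336 with the term). Cdt1, which loads that helicase, gave 722 and 682 units in SL LRCs and 1600 and 1815 in SL non-LRCs (-1.28 ± 0.23, adjusted p = 0.00372, and 0.0349 with the term), but had an adjusted p of 0.0663 without SL non-LRC 2. Both sets of values are tight and apart on the probe sets used. That of Mcm5 can cross-hybridise, as can those of Mcm4, Mcm7, Rrm2, Cdc20, Kif2c and Cdca8. An unmarked probe set of Mcm5, above the floor on all 4 SL arrays, gave 221 and 117 units in SL LRCs and 417 and 228 in SL non-LRCs (-0.94). Without probe sets so marked, 7 replication genes and 14 mitosis genes were called lower. Gins2 (-1.78 ± 0.32), Rrm2 (-1.51 ± 0.30), Mcm4 (-1.35 ± 0.28) and Mcm7 (-1.09 ± 0.23) also fell, and each lost its call with the term, with adjusted p of 0.128, 0.0523, 0.178 and 0.202, and in at least 1 fit without 1 SL array (up to 0.157). Only Mcm5 and Cdt1 of the 35 passed with the term (median -0.62), and 2 to 7 passed when 1 SL array was left out.

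Promoters of 5 of these genes are shown because mitosis and replication genes differ in the short motifs they carry. The windows run from 250 bases before to 50 bases after the start in RefSeq (GRCm38.p6), in the direction of the gene, and capitals mark matches on either strand to the cell cycle homology region (TTTGAA or TTCGAA), the CCAAT box (CCAAT) and the E2F motif (TTCGCGC or TTGGCGC). In Mcm5 the adjoining E2F matches share letters and appear as 1 run.
Mki67 (chr7:135716330-135716629, minus strand): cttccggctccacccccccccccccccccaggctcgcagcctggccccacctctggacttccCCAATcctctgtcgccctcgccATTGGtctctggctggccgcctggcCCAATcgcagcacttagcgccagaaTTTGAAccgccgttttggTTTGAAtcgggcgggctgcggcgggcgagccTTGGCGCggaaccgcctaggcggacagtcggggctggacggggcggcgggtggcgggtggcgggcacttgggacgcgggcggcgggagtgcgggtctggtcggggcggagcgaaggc
Cdc20 (chr4:118437294-118437593, minus strand): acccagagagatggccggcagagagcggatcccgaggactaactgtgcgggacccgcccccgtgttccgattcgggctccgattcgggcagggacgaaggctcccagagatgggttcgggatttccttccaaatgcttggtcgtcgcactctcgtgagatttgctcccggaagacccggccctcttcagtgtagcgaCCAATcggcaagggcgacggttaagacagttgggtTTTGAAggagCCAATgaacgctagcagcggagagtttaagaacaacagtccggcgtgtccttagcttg
Ttk (chr9:83834439-83834738, plus strand): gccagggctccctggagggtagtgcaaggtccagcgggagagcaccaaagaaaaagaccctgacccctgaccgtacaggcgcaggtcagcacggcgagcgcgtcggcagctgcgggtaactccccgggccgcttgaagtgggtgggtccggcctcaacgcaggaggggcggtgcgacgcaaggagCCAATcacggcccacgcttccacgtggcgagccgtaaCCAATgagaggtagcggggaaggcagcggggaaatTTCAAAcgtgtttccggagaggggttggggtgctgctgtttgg
Mcm5 (chr8:75109259-75109558, plus strand): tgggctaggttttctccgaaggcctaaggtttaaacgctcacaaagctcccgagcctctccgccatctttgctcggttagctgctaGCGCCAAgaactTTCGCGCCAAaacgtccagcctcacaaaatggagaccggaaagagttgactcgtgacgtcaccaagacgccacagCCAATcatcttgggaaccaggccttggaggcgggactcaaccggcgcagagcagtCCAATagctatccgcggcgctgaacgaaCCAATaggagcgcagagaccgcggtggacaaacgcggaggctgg
Cdt1 (chr8:122567765-122568064, plus strand): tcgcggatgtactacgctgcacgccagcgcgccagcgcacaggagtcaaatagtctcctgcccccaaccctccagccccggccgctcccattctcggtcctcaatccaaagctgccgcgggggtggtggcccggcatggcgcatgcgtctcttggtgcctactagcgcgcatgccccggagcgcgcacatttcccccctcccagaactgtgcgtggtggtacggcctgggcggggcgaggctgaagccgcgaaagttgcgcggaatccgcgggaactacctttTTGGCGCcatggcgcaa
The Mki67 window holds the cell cycle homology region at -116 and -98, counted to the first base of the match from the start site, and the Cdc20 window holds it at -18. In Ttk, the gene that rose, it lies at 8 past the start on the other strand. Mcm5 and Cdt1 have no such match in these letters and hold E2F matches. The Mki67 window also holds an E2F match, at -67.

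Over the lists the motifs differed in frequency. The cell cycle homology region was found in 27 of 32 mitosis promoters (84.4%), in 6 of 28 replication promoters (21.4%) and in 17.5% of the 14368 promoters of all measured genes that had a window. The E2F letters were found in 4 of 32 mitosis promoters (12.5%), 10 of 28 replication promoters (35.7%) and 6.76% of all. CCAAT, a commoner motif, was found in 78.1%, 57.1% and 42.0%. All 11 mitosis genes that fell and had a window held the homology region, and so did 1 of 9 replication genes that fell. A match describes the letters and is not a binding site.

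Regulators of the cycle did not move as a list, with 2 of 32 higher and 1 lower (median 0.07). Cdkn2b, an inhibitor of cyclin-dependent kinases, rose by 1.42 ± 0.35 (2185 and 1301 units in SL LRCs against 825 and 483 in SL non-LRCs; adjusted p = 0.0298), and Cdkn1b, another inhibitor, fell by 0.68 ± 0.17 (3224 and 3123 against 4959 and 5197; adjusted p = 0.0313). Neither call held with the array-set term (0.242 and 0.279). The other probe set of Cdkn1b differed by 0.02, with 1769 and 2463 units in SL LRCs and 1912 and 2225 in SL non-LRCs. Cdkn1b lost its call in all 4 fits without 1 SL array, and Cdkn2b lost it without SL LRC 1 (0.302) and without SL non-LRC 2 (0.304). Cdkn1a, the p53 target p21, was at 0.32 ± 0.20 (adjusted p = 0.446), and Cdkn1c was under the floor on all 4 arrays.

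**Figure D3:**
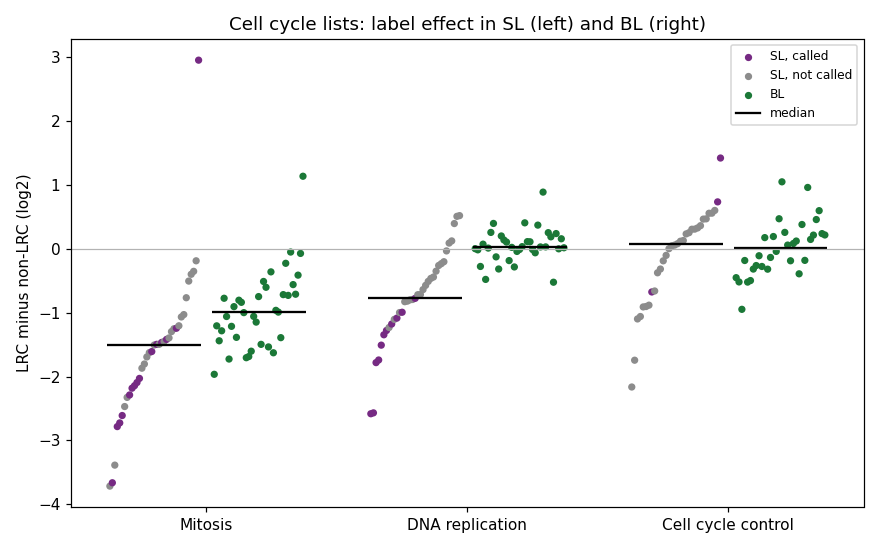
Log2 difference of LRC minus non-LRC for each member of the mitosis, DNA replication and cell cycle control lists, with SL values on the left of each pair (purple if called, grey if not) and BL values on the right (green). Black bars are medians, -1.51 in SL and -0.99 in BL for mitosis, -0.78 and 0.03 for DNA replication, and 0.07 and 0.01 for control genes. The isolated high point is Ttk.

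Of 23 spinous differentiation genes 9 rose and 2 fell in SL LRCs (median 0.56), and 2 rose with the array-set term. Leaving out 1 SL array gave 3 calls without SL LRC 1, 4 without SL non-LRC 2, 5 without SL LRC 2 and 8 without SL non-LRC 1. Krt1, the early suprabasal keratin, gave 28132 and 25741 units in SL LRCs and 14833 and 10399 in SL non-LRCs (1.12 ± 0.20, adjusted p = 0.00372, and 0.0829 with the array-set term). Krt77 and Krt10, also suprabasal keratins, rose by 0.62 ± 0.13 (adjusted p = 0.0123, and 0.0523 with the term) and 0.56 ± 0.14 (adjusted p = 0.0262, and 0.151 with the term). These are among the brightest genes on the arrays, and the groups do not overlap for any of the 3. Krt1 lost its call in 2 of the 4 fits without 1 SL array, and Krt77 and Krt10 lost theirs in all 4. In those fits the differences were 0.86 to 1.37 for Krt1, 0.58 to 0.67 for Krt77 and 0.48 to 0.64 for Krt10.

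The spinous genes that passed with the term were Them5, a mitochondrial thioesterase, and Serpinb2, a serine protease inhibitor. Them5 gave 4654 and 5429 units in SL LRCs and 1563 and 1153 in SL non-LRCs (1.90 ± 0.26, adjusted p = 0.000542, and 0.0145 with the term). Serpinb2 gave 948 and 1082 units in SL LRCs and 250 and 125 in SL non-LRCs (2.52 ± 0.39, adjusted p = 0.00138, and 0.0165 with the term). Both held in all 4 fits without 1 SL array, as did Mt4, an epithelial metallothionein, which rose by 2.85 ± 0.44 (13574 and 14989 units against 3671 and 1073; adjusted p = 0.00138, and 0.0549 with the term). Calml3, a calmodulin-like protein of epithelium, went the other way, with 343 and 546 units in SL LRCs and 2882 and 2235 in SL non-LRCs (-2.55 ± 0.45, adjusted p = 0.00367, 0.0572 with the term, and 0.0615 without SL LRC 1).

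Granular and cornified envelope genes showed no common direction, with 2 of 33 higher and 2 lower (median -0.09), 1 and 2 with the term and 2 to 3 calls without 1 SL array. Casp14, a protease of terminal differentiation, rose by 1.61 ± 0.28 (5863 and 7047 units in SL LRCs against 2059 and 2157 in SL non-LRCs; adjusted p = 0.00358, and 0.101 with the term). Sprr1a, a small proline-rich envelope protein also induced by injury, fell by 1.38 ± 0.30 (6107 and 6546 units against 19638 and 13773; adjusted p = 0.0124, and 0.0427 with the term), and lost its call without SL LRC 1, SL LRC 2 or SL non-LRC 1 (up to 0.133). The other member that rose, and the one kept with the term, was Lce1d, described above. Klk7, a desquamation protease, fell by 2.07 ± 0.31 (1090 and 1134 units against 5963 and 3665; adjusted p = 0.00103, and 0.03 with the term). Klk11, a kallikrein not counted in this list, rose by 2.12 ± 0.30 (1656 and 2203 units against 561 and 345; adjusted p = 0.00074, and 0.0134 with the term). The envelope precursors Ivl, Lor and Flg were at -0.88 ± 0.49, -0.09 ± 0.64 and 1.66 ± 1.04, none of which passed.

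Lipid barrier genes were mixed, with 5 of 29 higher and 2 lower, 1 and 1 with the term, and 1 call without SL LRC 1 or without SL non-LRC 2. Elovl4, named above, gave 9436 and 10159 units in SL LRCs and 3380 and 2594 in SL non-LRCs (adjusted p = 0.0339 with the term). Acer1, an alkaline ceramidase, rose by 1.02 ± 0.20 (8482 and 7882 units against 4343 and 3765; adjusted p = 0.00756, 0.0853 with the term, and up to 0.111 without 1 SL array). The 2 that fell are enzymes also made in sebaceous cells: Fa2h, a fatty acid hydroxylase, gave 183 and 434 units in SL LRCs and 1852 and 4785 in SL non-LRCs (-3.40 ± 0.74, adjusted p = 0.0133, and 0.0215 with the term), and Cers4, a ceramide synthase, fell by 4.56 ± 1.06 (adjusted p = 0.0195, and 0.228 with the term). Both lost their calls without SL LRC 1 (0.167 and 0.268) and without SL non-LRC 2 (0.193 and 0.208).

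Of 22 basal keratinocyte genes, 10 had both SL LRC arrays above both SL non-LRC arrays and 6 had both below, as 23.4% and 24.2% of all genes did. Only Itgb1, an integrin chain, was called, at -1.02 ± 0.22 (711 and 877 units in SL LRCs against 1713 and 1506 in SL non-LRCs; adjusted p = 0.0113, and 0.148 with the term), a call lost without SL LRC 1 (0.128) and without either SL non-LRC array (0.0911 and 0.0664). Krt5 (0.12 ± 0.15), Krt14 (-0.33 ± 0.13), Krt15 (0.24 ± 0.16), Trp63 (0.39 ± 0.17) and Itga6 (-0.18 ± 0.16) had adjusted p of 0.172 to 0.786, and Krt14, Trp63 and Itga6 were among those whose groups did not overlap. Dlx1 and Slc1a3, which the study used as markers, were also not called. Dlx1 was above the floor on 1 array of each group (1.52 ± 0.90, adjusted p = 0.437). Slc1a3 gave 40.9 and 29 units in SL LRCs and 177 and 223 in SL non-LRCs (adjusted p = 0.0563). A probe set of Slc1a3 that can cross-hybridise gave 104 and 155 units in SL LRCs and 50.9 and 147 in SL non-LRCs. Its remaining probe sets, above the floor on 1 to 3 SL arrays, differed by -1.92 to -3.93.

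Markers of the upper hair follicle were lower in SL LRCs. All 14 infundibulum and isthmus genes measured had both SL LRC arrays below both SL non-LRC arrays, as 24.2% of all genes did, and 9 fell (median -1.51), 8 of them also with the array-set term and 5 or 6 when any 1 SL array was left out. Krt79, a keratin of the infundibulum and sebaceous duct, gave 9007 and 7563 units in SL LRCs and 21361 and 21776 in SL non-LRCs (-1.39 ± 0.25, adjusted p = 0.00367, and 0.0146 with the term), with an adjusted p of 0.0502 without SL non-LRC 2. Gata6, a transcription factor of the sebaceous duct, gave 211 and 254 units in SL LRCs and 2306 and 2568 in SL non-LRCs (-3.39 ± 0.41, adjusted p = 0.000212, and 0.00103 with the term). Plet1 and Lrig1, surface markers of the isthmus, fell by 2.15 ± 0.24 (adjusted p = 0.000119, and 0.000456 with the term) and 1.76 ± 0.21 (adjusted p = 0.000165, and 0.0044 with the term). The summed signal of the list was 51882 to 53408 units in SL LRCs and 121520 to 127965 in SL non-LRCs.

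Of 19 sebocyte genes 6 were called lower and none higher (median -2.17), 4 of them with the term. Over the 19, called or not, 6 had a difference above 0 and 13 below. Without SL LRC 1 or without SL non-LRC 2 only 2 were called (medians -1.52 and -1.47). Pparg, the lipogenic nuclear receptor, gave 13.6 and 57.8 units in SL LRCs and 511 and 1225 in SL non-LRCs (-4.82 ± 0.99, adjusted p = 0.00949, and 0.0555 with the term). Plin2, a lipid droplet coat protein, fell by 2.17 ± 0.45 (588 and 1016 units against 2888 and 4166; adjusted p = 0.00982, and 0.029 with the term). Akr1c18, a steroid dehydrogenase, gave 65.2 and 344 units in SL LRCs and 2876 and 5809 in SL non-LRCs (-4.77 ± 0.66, adjusted p = 0.000559, and 0.0271 with the term). SL LRC 2 lay above SL LRC 1 for these 3 genes and Mgst1, and Pparg and Plin2 lost their calls without SL LRC 1 (0.132 and 0.139) and without SL non-LRC 2 (0.144 and 0.135). Summed over the list the signal was 20460 to 26445 units in SL LRCs and 34372 to 56705 in SL non-LRCs.

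Bulge and hair germ genes had 9 of 24 lower and 1 higher (median -0.59), 6 and 1 with the term, and 4 to 8 were called without 1 SL array, fewest without SL LRC 1. Sox9, a transcription factor of follicle stem cells, gave 1205 and 1172 units in SL LRCs and 6591 and 6081 in SL non-LRCs (-2.41 ± 0.23, adjusted p = 5.35e-05, and 2.36e-05 with the term). Foxc1, a regulator of follicle stem cell quiescence, gave 761 and 720 units in SL LRCs and 7078 and 5081 in SL non-LRCs (-3.02 ± 0.39, adjusted p = 0.00032, and 0.000847 with the term). Runx1 fell by 1.78 ± 0.25, Vdr by 1.25 ± 0.20 and Lhx2 by 1.47 ± 0.30, each also past the threshold with the term. Of the 24 members, 8 had a difference above 0 and 16 below. The gene called higher was the keratin Krt24, with 349 and 442 units in SL LRCs and 135 and 21.7 in SL non-LRCs (2.86 ± 0.67, adjusted p = 0.0202, and 0.0341 with the term). Krt24 is named here because it is the only member called in that direction. Krt24 lost its call in 3 of the 4 fits without 1 SL array (up to 0.258), and Lhx2 lost it without SL LRC 1, SL LRC 2 or SL non-LRC 1 (up to 0.12).

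**Figure D4:**
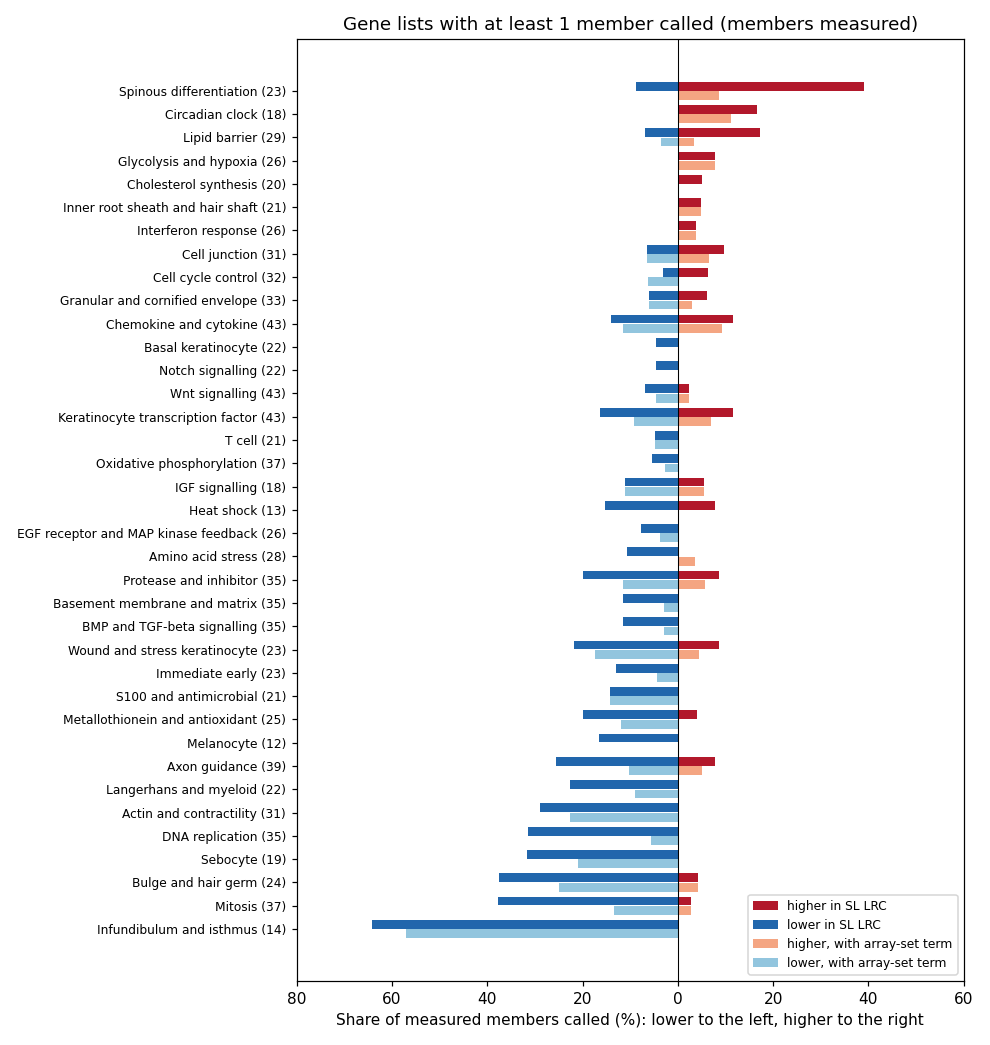
Share of the measured members of each gene list that were called higher (to the right, red) or lower (to the left, blue) in SL LRCs, with paler bars for the fit with the array-set term. The number after each list name is the members measured. The lists reaching farthest to the left are infundibulum and isthmus (64.3%), mitosis (37.8%) and bulge and hair germ (37.5%), and the spinous list reaches farthest to the right (39.1%), against 2.7% lower and 1.49% higher over all genes.

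Of 31 actin genes 9 fell and none rose in SL LRCs (median -0.19), with 7 called with the term and 7 in every fit without 1 SL array. Tpm2, a tropomyosin that coats actin filaments, had the smallest p of all genes tested: 638 and 863 units in SL LRCs and 6104 and 6880 in SL non-LRCs (-3.13 ± 0.23, adjusted p = 4.83e-06, and 7.01e-05 with the term). The groups are 8.73-fold apart, and the SL non-LRC level is near the GL geometric mean of 6508 units. Tpm1, another tropomyosin, gave 3714 and 3028 units in SL LRCs and 11156 and 9732 in SL non-LRCs (-1.64 ± 0.23, adjusted p = 0.00063, and 0.0215 with the term). Actn1, an actin cross-linker (-1.81 ± 0.24), Pfn2, a profilin (-1.50 ± 0.23), Fscn1, which bundles filaments (-2.70 ± 0.43), and Tmsb10, which binds actin monomers (-1.20 ± 0.19), fell as well and held with the term. The probe set used for Tmsb10 can cross-hybridise, as can 3 others that differed by -1.04 to -1.77, and the one that is not so marked was above the floor on 1 SL array, at 0.33.

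Junction genes changed in both directions, with 3 of 31 higher and 2 lower, 2 and 2 with the term, and 2 calls without SL non-LRC 2. The gap junction genes Gjb5 and Gjb2 moved apart: Gjb5 gave 5484 and 7280 units in SL LRCs and 2521 and 1216 in SL non-LRCs (1.85 ± 0.31, adjusted p = 0.0024, and 0.0145 with the term), and Gjb2 gave 120 and 177 units in SL LRCs and 2193 and 981 in SL non-LRCs (-3.33 ± 0.50, adjusted p = 0.00112, and 0.00265 with the term). Each set of 4 values is fully separated, in opposite order. The desmosomal cadherin Dsg1b rose by 1.58 ± 0.30 (adjusted p = 0.00646, and 0.0337 with the term) and Dsg1a by 1.02 ± 0.20 (adjusted p = 0.00787, and 0.161 with the term), 2 near-identical genes whose probe sets may share signal. Cldn8, a tight junction protein, fell by 3.43 ± 0.52 (34.8 and 51.5 units against 464 and 447; adjusted p = 0.00112, and 0.0198 with the term). Gjb5 lost its call without SL non-LRC 2 (0.0636), as did Dsg1b (0.13) and Dsg1a (0.136), both of which also lost theirs without SL LRC 1 (0.073 and 0.0728), and Dsg1a without SL LRC 2 (0.0524).

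Wound and stress genes had 5 of 23 lower and 2 higher, 4 and 1 with the term, and 2 to 4 calls without 1 SL array, fewest without SL LRC 1. Krt6a, a keratin induced by injury and present in the companion layer of the follicle, gave 987 and 2292 units in SL LRCs and 11092 and 8394 in SL non-LRCs (-2.68 ± 0.48, adjusted p = 0.0037, and 0.0173 with the term). Krt17, often made with it, fell by 1.08 ± 0.23 (7426 and 5302 units against 14013 and 12592; adjusted p = 0.0124, and 0.26 with the term). Il1rn, the interleukin 1 receptor antagonist, rose by 1.36 ± 0.28 (5913 and 4983 units against 2528 and 1767; adjusted p = 0.00968, and 0.0705 with the term). Krt6a lost its call without SL LRC 1 (0.0772), Krt17 lost it in 3 of the 4 fits without 1 SL array (up to 0.159) and Il1rn in 2 (up to 0.152).

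Among secreted signals and their receptors, Wnt genes had 1 of 43 higher and 3 lower, 1 and 2 with the term. The ligand gene Wnt7b rose by 1.75 ± 0.30 (1381 and 1900 units in SL LRCs against 533 and 432 in SL non-LRCs; adjusted p = 0.00242, and 0.015 with the term). The receptor gene Fzd7 gave 1739 and 1942 units in SL LRCs and 6286 and 6920 in SL non-LRCs (-1.84 ± 0.20, adjusted p = 0.000106, and 0.00336 with the term), and Lgr4, a receptor for R-spondins, fell by 1.38 ± 0.20 (1293 and 1691 units against 3466 and 4270; adjusted p = 0.000896, and 0.0095 with the term). These 3 genes held in all 4 fits without 1 SL array. Fzd3 fell by 1.73 ± 0.39 but lost its call with the term (0.209) and in 3 of the 4 fits without 1 SL array (up to 0.22).

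Insulin-like growth factor binding proteins moved in opposite directions. Against the rise of Igfbp3, Igfbp4 gave 1173 and 1614 units in SL LRCs and 10304 and 14708 in SL non-LRCs (-3.16 ± 0.35, adjusted p = 0.000106, and 0.00219 with the term). Igfbp2 gave 75.4 and 82.3 units in SL LRCs and 695 and 1904 in SL non-LRCs (-3.87 ± 0.70, adjusted p = 0.00389, and 0.0349 with the term), with an adjusted p of 0.104 without SL non-LRC 2. No other of the 18 genes of that pathway was called. Notch genes had 1 of 22 lower, the ligand Jag2 (-1.24 ± 0.24, adjusted p = 0.00617, and 0.0951 with the term). The other probe set of Jag2, above the floor on all 4 SL arrays, differed by -0.12. BMP and TGF-beta genes had 4 of 35 lower, with 0 to 2 calls without 1 SL array, and of these Fst, a follistatin that binds activins, held with the term (-2.24 ± 0.44, adjusted p = 0.00749, and 0.0326 with the term) and Id4, a target, did not (-1.32 ± 0.30, adjusted p = 0.0159, and 0.355 with the term). Without 1 SL array the adjusted p reached 0.128 for Jag2, 0.109 for Fst and 0.142 for Id4.

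Chemokine and cytokine genes had 5 of 43 higher and 6 lower, 4 and 5 with the term. Cxcl12, a chemokine, gave 176 and 120 units in SL LRCs and 1782 and 1707 in SL non-LRCs (-3.59 ± 0.32, adjusted p = 4.41e-05, and 0.000456 with the term). Its receptor gene Cxcr4 gave 193 and 118 units in SL LRCs and 893 and 777 in SL non-LRCs, and also fell (-2.47 ± 0.44, adjusted p = 0.00386, 0.0376 with the term, and up to 0.0514 without 1 SL array), named here for the pair it forms with Cxcl12. Il7, a lymphocyte growth factor, was at least 15.1-fold lower, with SL LRCs under the floor on both arrays (37.4 and 23.9 units against 556 and 569; adjusted p = 0.000945, and 0.0155 with the term). Cxcl1, which attracts neutrophils, fell by 2.66 ± 0.41 (adjusted p = 0.00138, and 0.0232 with the term). Higher in SL LRCs was Il6ra, the interleukin 6 receptor, at 8052 and 9674 units against 4151 and 3449 (1.22 ± 0.20, adjusted p = 0.00165, and 0.0282 with the term).

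Axon guidance genes, which also act in epithelia, had 3 of 39 higher and 10 lower (median 0.01), 2 and 4 with the term, and 5 to 9 calls without 1 SL array, fewest without SL LRC 2. The 3 that rose, Sema3c, Sema3d and Sema3f, are secreted class 3 semaphorins, and Sema3d gave 1196 and 1810 units in SL LRCs and 184 and 93.6 in SL non-LRCs (adjusted p = 0.00144, and 0.0316 with the term). Sema3c and Sema3f, named after their values were seen, reached 0.259 and 0.301 without 1 SL array, and Sema3f did not pass with the term (0.174). Among those that fell, the neuropilin receptor gene Nrp2 gave 60.4 and 77.4 units in SL LRCs and 560 and 778 in SL non-LRCs (-3.27 ± 0.68, adjusted p = 0.0107, 0.153 with the term, and up to 0.129 without 1 SL array). Ntn4, a netrin, fell by 1.85 ± 0.28 (475 and 411 units against 1438 and 1767; adjusted p = 0.00108, and 0.0349 with the term). Efnb1, an ephrin, fell by 0.99 ± 0.19 (adjusted p = 0.00602, and 0.0354 with the term), with an adjusted p of 0.0551 without SL non-LRC 1.

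Of 43 keratinocyte transcription factor genes 5 rose and 7 fell, and 5 to 10 were called without 1 SL array, fewest without SL non-LRC 2. Gata3, which takes part in barrier formation and in the inner root sheath, gave 11405 and 11761 units in SL LRCs and 5270 and 4155 in SL non-LRCs (1.31 ± 0.18, adjusted p = 0.00063, and 0.0173 with the term). Klf4 and Klf5, factors of differentiating and of proliferating epithelium, rose by 0.84 ± 0.20 (adjusted p = 0.0206, and 0.329 with the term) and 1.00 ± 0.19 (adjusted p = 0.00649, and 0.0659 with the term), and lost their calls in 3 and 2 of the 4 fits without 1 SL array (up to 0.227 and 0.135). Sox6 and Satb1 were the others that rose, and Gata6, Sox9, Runx1, Foxc1, Cebpb, Nfib and Tcf7l1 fell. With the term Gata3, Sox6 and Satb1 remained higher, and Gata6, Sox9, Runx1 and Foxc1 lower. Sox6, Satb1, Cebpb, Nfib and Tcf7l1, named after their values were seen, each passed in at most 1 of the 4 fits without 1 SL array (up to 0.245, 0.209, 0.192, 0.376 and 0.167).

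Among 35 protease and inhibitor genes 3 rose and 7 fell, 2 and 4 with the term, and 4 to 6 were called without 1 SL array, fewest without SL LRC 1 or SL non-LRC 2. Those that fell included Ctsl (534 and 547 units in SL LRCs against 1981 and 1566 in SL non-LRCs; -1.71 ± 0.28, adjusted p = 0.00226, and 0.0734 with the term) and Ctsb (-0.65 ± 0.14, adjusted p = 0.014, and 0.0199 with the term), both cathepsins. Ctsb lost its call in all 4 fits without 1 SL array. Of 18 circadian clock genes 3 rose and none fell, 2 with the term and 1 without SL LRC 2 or without SL non-LRC 2. Rora, a nuclear receptor of the clock, gave 4437 and 7302 units in SL LRCs and 1380 and 834 in SL non-LRCs (2.41 ± 0.34, adjusted p = 0.00063, and 0.00336 with the term). Hlf, a clock output factor, rose by 1.76 ± 0.33 (2880 and 3744 units against 1330 and 704; adjusted p = 0.00586, and 0.0186 with the term), but not without SL LRC 2 (0.0699) or SL non-LRC 2 (0.123). Per3 rose by 1.02 ± 0.24 and lost its call with the term (0.413) and in all 4 fits without 1 SL array (up to 0.172), and times of death are not given here.

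Metabolic lists held few calls. Of 26 glycolysis and hypoxia genes Bnip3, a hypoxia-induced mitophagy receptor (1589 and 2186 units in SL LRCs against 634 and 756 in SL non-LRCs; 1.43 ± 0.26, adjusted p = 0.00403, and 0.0383 with the term), and Hif1a (0.91 ± 0.20, adjusted p = 0.0124, and 0.104 with the term) rose, and none fell. Bnip3 lost its call without SL LRC 2 (0.0634), and Hif1a in 3 of the 4 fits without 1 SL array (up to 0.188). Oxidative phosphorylation genes had 2 of 37 lower, Ndufa4 (adjusted p = 0.0226 with the term) and Ndufv2 (0.196 with the term), with a median of -0.31, and without 1 SL array these reached 0.1 and 0.0967. Of 25 metallothionein and antioxidant genes 5 fell and 1 rose, 3 and 0 with the term, and 2 to 4 were called without 1 SL array. Gstm1, a glutathione transferase, gave 3175 and 3240 units in SL LRCs and 9592 and 9848 in SL non-LRCs (-1.60 ± 0.18, adjusted p = 0.000127, and 0.00233 with the term), and Sod1, a superoxide dismutase, fell by 1.10 ± 0.18 (adjusted p = 0.00164, 0.0173 with the term, and 0.0521 without SL non-LRC 2). None of 21 ribosomal protein genes and none of 22 unfolded protein response genes was called, with medians of 0.25 and -0.37.

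The remaining lists were sparse. Amino acid stress genes had 3 of 28 lower, Phgdh and Psph of serine synthesis and the transporter Slc1a4, none of them with the term, and without 1 SL array their adjusted p reached 0.0521, 0.195 and 0.242. Heat shock genes had 1 of 13 higher and 2 lower and cholesterol synthesis genes 1 of 20 higher, none of which passed with the term. EGF receptor feedback genes had 2 of 26 lower, 1 with the term, and interferon response genes 1 of 26 higher, Usp18 (467 and 535 units in SL LRCs against 84.1 and 114 in SL non-LRCs; 2.35 ± 0.47, adjusted p = 0.00831, and 0.0221 with the term). Usp18 lost its call without SL LRC 1 (0.0548), SL LRC 2 (0.0681) or SL non-LRC 1 (0.0636). Basement membrane and matrix genes had 4 of 35 lower, 1 with the term. Immediate early genes had 3 of 23 lower, 1 with the term, of which Egr2 gave 2042 and 2869 units in SL LRCs and 11722 and 12360 in SL non-LRCs (-2.31 ± 0.30, adjusted p = 0.000398, and 0.014 with the term). S100 and antimicrobial genes had 3 of 21 lower, 3 with the term but at most 1 without 1 SL array, among them Defb6, a beta-defensin (5856 and 8190 units against 21741 and 21077; -1.63 ± 0.38, adjusted p = 0.022, and 2.16e-05 with the term), which lost its call in all 4 fits without 1 SL array, with adjusted p up to 0.206.

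Markers of other cell types were checked in the sorted samples. Of 22 Langerhans and myeloid genes 5 fell (median -1.05), 2 with the term and 2 without SL LRC 1 or without SL non-LRC 1, and their summed signal was 6753 to 8040 units in SL LRCs and 14019 to 22538 in SL non-LRCs. Csf1r, the macrophage growth factor receptor, gave 2.53 and 29.9 units in SL LRCs and 383 and 356 in SL non-LRCs (adjusted p = 0.00112, and 0.0174 with the term), while the one of its 3 probe sets above the floor on all 4 arrays gave 91.6 and 87.9 units in SL LRCs and 155 and 108 in SL non-LRCs, a difference of -0.53. H2-Aa, an antigen-presenting chain, gave 223 and 343 units in SL LRCs and 2399 and 580 in SL non-LRCs (adjusted p = 0.0255, 0.294 with the term, and up to 0.298 without 1 SL array), and Cd207, the defining Langerhans gene, was above the floor on only 1 of the 4 arrays. Melanocyte genes had 2 of 12 lower, Tyrp1 and Dct, and summed to 726 to 815 units in SL LRCs and 1434 to 1474 in SL non-LRCs. Neither melanocyte call held with the term (0.1 and 0.421) or in all fits without 1 SL array (up to 0.154 and 0.215). The part of these cells in the other results was not tested.

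T cell genes had 1 of 21 lower, Il18r1, and summed to 4143 to 4258 units in SL LRCs and 4186 to 6223 in SL non-LRCs. Fibroblast (19), endothelial and mural (17) and Merkel cell (10) genes had none called, with sums of 2029 to 2260, 774 to 1010 and 194 to 333 units in SL LRCs, against 1910 to 3566, 1105 to 1172 and 236 to 345 in SL non-LRCs. Of the defining markers, Col3a1, Lum, Kdr, Emcn and Atoh1 were under the floor on all 4 SL arrays. Col1a1 and Krt18 were above it on all 4, at 45.8 to 80.6 and 47.8 to 63.4 units. Dcn was above it on 3, Pecam1 and Krt8 on 2, and Col1a2, Cdh5 and Krt20 on 1. One inner root sheath gene of 21, Gata3, was called.

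The label effect was then set beside that of the BL fraction, where 279 genes (1.53%) were called between BL LRCs and BL non-LRCs. Of the genes called in SL, 34 were also higher in BL and 155 also lower, none was called in opposite directions, and 574 were called in SL and not in BL, which does not show a difference. The difference of the label effects was tested gene by gene, and 0 of 18194 passed (0%, limma), with 1292 at an unadjusted p under 0.05 and the smallest adjusted p at 0.0948. Same-numbered BL arrays deviated together. With the replicate number as a block among the BL arrays, a fit added after the data were seen, 419 genes were called between BL LRCs and BL non-LRCs and 9 passed for the difference of the label effects. With the number as a block over all arrays 4 passed, and other settings gave 0 to 6. Of the genes named above, the smallest p for that difference belonged to Tpm2, Ctsl, Mcm5, Tpm1, Pfn2 and Cdt1.

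For these genes the SL difference was larger in size than the BL one. Tpm2 was at -3.13 in SL and -1.16 ± 0.19 in BL, and Tpm1 at -1.64 in SL and 0.09 ± 0.19 in BL. Mcm5 was at -1.74 in SL and 0.07 ± 0.19 in BL, and Cdt1 at -1.28 in SL and 0.25 ± 0.19 in BL. Ctsl had opposite signs, -1.71 in SL and 0.55 ± 0.23 in BL. The differences of effects were -1.97 ± 0.30 for Tpm2, -1.81 ± 0.30 for Mcm5 and -2.26 ± 0.37 for Ctsl, with adjusted p of 0.0948 for each of the 3, and of 0.014, 0.037 and 0.0109 with the block among BL arrays. With that block Tpm1 (0.0109), Pfn2 (0.0433) and Cdt1 (0.0433) passed too, as did Krt79 (0.0433), which was at -1.39 in SL and -2.72 in BL. The SL difference coincides with the array set and the BL difference does not. With the term in the model 5 genes passed, which were Glul, a glutamine synthetase (adjusted p = 0.0113), Shmt1, an enzyme of serine metabolism (0.0412), and 3 Y-linked genes, and none of those compared here did.

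The GL samples, in which the label was not sorted, gave a further placing of the called genes. The reading of GL as the granular layer was not tested with markers. The macrophage receptor gene Csf1r had a GL geometric mean of 3140 units, with the arrays at 1941 and 5081. On the same probe set it was at 369 in SL non-LRCs, 97.9 in BL non-LRCs and 64.0 in BL LRCs. The part of other cell types in the GL levels was not tested. GL arrays belong to the same high-BioB set as the SL LRC arrays, and neither GL nor BL values enter the size of the SL difference fitted without the array-set term. Both do enter the spread behind its p-value and the choice of probe set, so the calls are not independent of them. BL values also enter the term, so the genes called in both fits were chosen partly on them. The 492 genes lower in SL LRCs had a median GL minus BL difference of 0.44 log2 units, against -0.023 over all genes, and the 271 genes higher in SL LRCs had a median of -0.28. Both GL arrays were above all 6 BL arrays for 36.0% of the lower genes and 11.4% of the higher genes, against 13.6% of all genes. They were below all 6 for 20.3% of the lower genes and 28.4% of the higher genes, against 13.3% of all genes. So the lower genes exceeded all genes in both directions. For genes above the floor on all 4 SL arrays the shares were 14.8% above and 18.7% below, with a median of -0.062. For the genes called in both fits the medians were 1.02 (192 lower) and -0.73 (78 higher). With the high-BioB BL arrays alone they were 0.45 for all the lower and -0.29 for all the higher genes.

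Named genes show both patterns. Sox9, lower in SL LRCs, had a GL geometric mean of 11164 units, above both SL groups, and Gjb2 had 10107, Actn1 11805 and Krt6a 26449. In contrast Mki67, at 1144 units in GL, and Mcm5, at 659, were near or below the SL LRC level. Igfbp3, at 307 units in GL, lay between the SL non-LRC and SL LRC levels, and Rora, at 1424, was near the SL non-LRC level. The sebocyte genes Mgst1, at 3872 units in GL, and Plin2, at 1720, lay between the SL LRC and SL non-LRC levels, and Akr1c18, at 312, lay within the SL LRC range.

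**Figure D5:**
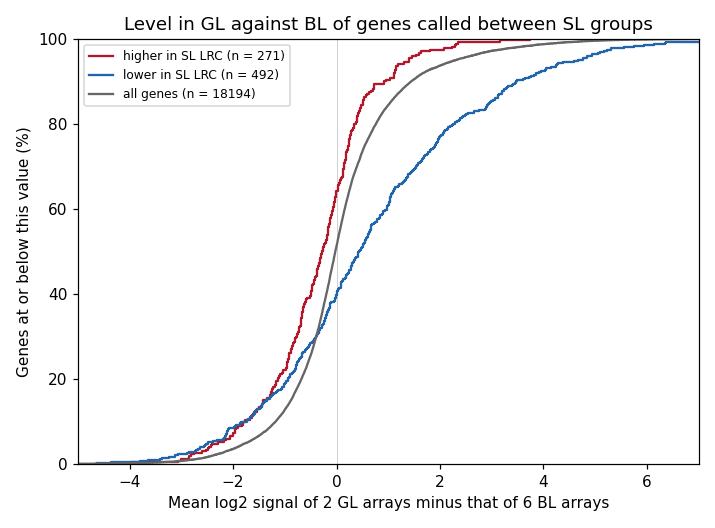
Cumulative share of genes (y axis, percent) by the mean log2 signal of the 2 GL arrays minus that of the 6 BL arrays (x axis), for genes called higher in SL LRCs (red), called lower (blue) and all genes (grey). The curve of the lower genes lies to the right of the other curves over its upper part (median 0.44), and that of the higher genes to the left (median -0.28).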

How the data were processed

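Each of the 12 samples was hybridised to 1 array. Per the labels' protocols, RNA was extracted from sorted cells and 5 ng was amplified and labelled. The values are the authors' deposited intensity of each probe set on a linear scale, with a trimmed mean of 500 on every array (2% cut from each end, checked on the values). The summarisation software is not given in the sources used here, and the number of arrays limits the precision.

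Of 45101 probe sets, 34945 map to 1 gene in the platform annotation, 932 to several and 9160 to none, and 64 are controls. The probe set of highest mean over the 12 arrays was kept per gene, leaving 18194 genes, of which 18032 matched the RefSeq table by identifier. The deposited values were turned to log2 (no pseudocount) and fitted with limma 3.58.1 in R 4.3.3: 5 group means over 12 arrays, empirical Bayes with a mean-variance trend, Benjamini-Hochberg adjustment over all genes at 0.05. Errors are moderated standard errors. The array-set term (BioB above or below 1000 units) was added to the same model. Where every probe set of a gene was under the floor (95th percentile of 27 bacterial probe sets) on both arrays of a group, a bound is given, and otherwise values are those of the probe set kept.

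Named genes were the 12 largest differences per direction that passed with and without the array-set term without overlap and with the higher group above the floor, the 12 brightest called per direction, up to 6 members of smallest p per list, most cell type markers and 19 set genes. The planned sebocyte and bulge markers Scd1, Mc5r, Cd34 and Lgr5 were left out, and their values are not given here. Bckdhb, Ccna2, Cebpb, Cxcr4, Glul, Krt24, Nfib, Satb1, Sema3c, Sema3f, Shmt1, Sox6, Tcf7l1 and Tpx2 lie outside this rule and were named after their values were seen. The comparison, lists and rule were chosen with earlier results of these data known. Replicate numbers recur across the groups. Same-numbered SL arrays did not deviate together (correlation 0.037), whereas the 3 BL pairs did (0.317, 0.199 and 0.178), both BL arrays numbered 1 being in the low-BioB set. The fit has no block, and blocked values are given where they change a BL result. Alternatives covered scaling, floor, pseudocount, probe set choice, samples fitted, trend, block and left-out arrays. Python 3.11.15, pandas 2.3.3 and matplotlib 3.10.9 were used.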

Additional observations from a re-analysis of the deposited data

How the results depend on the processing

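Against 763 called genes (271 higher and 492 lower in SL LRCs, 64.5% lower), a fit with no mean-variance trend called 150 (37 higher, 113 lower, 75.3% lower), and the array-set term 320 (97 higher, 223 lower). Leaving out 1 SL array gave 209 to 481 calls (64 to 205 higher, 145 to 328 lower, 57.4% to 80% lower), and the array-set term without 1 BL array gave 42 to 429 (1 to 151 higher, 41 to 278 lower, 64.8% to 97.6% lower), lowest without BL non-LRC 1. Scaling set the balance of directions: centring arrays on their gene medians gave 51.1% lower (386 higher, 403 lower, median of all genes 0.12), and centring on the median of all probe sets, added after seeing the data, 81.8% lower (126 higher, 566 lower, median -0.14). Raising values to the floor moved the median of all genes to 0.20 by construction. Over these scalings 31 of 42 list medians kept their sign, and the 11 that did not, including cell cycle control, basal, granular, Wnt, Notch and axon guidance genes, stayed within 0.25 of 0. A replicate block over all arrays gave 906 calls, and one among the BL arrays only, added after seeing the data, 1108 (419 higher, 689 lower). For the difference of label effects (0 genes), raising values to the floor gave 4, no trend 2, the array-set term 5, the replicate block 4 (9 among the BL arrays only), the mean of all probe sets 2, leaving out 1 SL array 0 to 1, and the array-set term without 1 BL array 3 to 6. The cause of these changes was not tested beyond the fewer samples that a left-out array or an added term implies. Of the 156 named called genes, 89 kept their call with the array-set term and 40 with no trend. Tmsb10 alone reversed, at 0.33 (adjusted p = 0.887) without cross-hybridising probe sets. Dim genes rest on signal near the floor.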

Other observations

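Among the brightest genes called, several have no list above. Higher in SL LRCs were Itm2b, a membrane protein (26395 and 25600 units in SL LRCs against 16920 and 15197 in SL non-LRCs), Anxa8, an annexin (19603 and 23419 against 13214 and 14188), Ivns1abp (17368 and 15204 against 9382 and 10029) and Calm4, a calmodulin-like protein of epidermis (16062 and 15656 against 8808 and 6537). Their differences were 0.65 to 1.06 log2 units, and Ivns1abp alone of these 4 kept its call with the array-set term (limma, adjusted p = 0.0173). Without 1 SL array the adjusted p reached 0.133 for Itm2b, 0.237 for Anxa8, 0.0923 for Ivns1abp and 0.106 for Calm4. Lower in SL LRCs were Cst6, a cystatin (10289 and 12255 units against 26731 and 25024; -1.20 ± 0.32, adjusted p = 0.0396, and 0.00232 with the term), Apoe, a lipoprotein (8380 and 7943 against 15114 and 17407; -0.99 ± 0.14, adjusted p = 0.000616, and 0.00953 with the term), and Prpf19, a splicing factor (6960 and 8017 against 14516 and 17502; adjusted p = 0.00749, 0.18 with the term, and up to 0.117 without 1 SL array). Apoe held in all 4 fits without 1 SL array, whereas Cst6 held in none of them.

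Called genes that were measured by more than 1 probe set can be read on the others. Of 159 further probe sets of named called genes that were above the floor on all 4 SL arrays, 153 had the same sign as the one used. Sign takes no account of size, and among those of the same sign a probe set of Jag2 differed by -0.12 and a probe set of Mcm7 by -0.13.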
